A study of Mus musculus with 36 samples.

Results

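The genes described here are the 8 MHC class II genes H2-Aa, H2-Ab1, H2-Eb1, H2-Eb2, H2-DMa, H2-DMb1, H2-DMb2 and H2-Oa, with the invariant chain gene Cd74 and the class II transactivator gene Ciita. They are 10 of the 54203 genes quantified, listed by symbol for their place in class II antigen presentation, and Cd74 was followed apart from the others. RNA was measured in 36 libraries of reporter-positive plasma cells sorted as CD138+TACI+ from the bone marrow of C57/BL6 mice, with 2000 cells per library, in models of subgroups of multiple myeloma. Each of 2 cohorts had 4 control libraries, 4 of each single transgene and 6 with both. The D cohort comprised Control(D), the single groups Ikk2ca(D) and Ccnd1, and the double group Ccnd1-Ikk2ca. The M cohort comprised Control(M), the single groups Ikk2ca(M) and MMSET, and the double group MMSET-Ikk2ca. Ccnd1 encodes cyclin D1, MMSET is the histone methyltransferase Nsd2, and Ikk2ca is a constitutively active form of the kinase IKK2, which drives NF-kB signalling. The driver of each transgene, the alleles the controls carry and the age of the mice are not given in the sources used here. The labels also do not say that each library came from its own mouse, and the spread behind each p-value is that between libraries, which may be technical.

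Class II molecules are pairs of an alpha and a beta chain that carry peptides from the endosome to the surface of antigen-presenting cells. Cd74 fills the groove of new pairs until H2-DM exchanges its remnant for peptide, a step that H2-O inhibits. Ciita does not bind DNA. It is held by the RFX, NF-Y and CREB factors that sit on the X and Y boxes of class II promoters. B cells express all of these genes, and Ciita is silenced as B cells become plasma cells.

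The promoters are shown because most of these genes share the box pair through which Ciita acts. RefSeq's promoter table (GRCm38.p6, from 250 bases before to 50 bases after each start) held 8 windows for 7 of the 10 genes, and none for H2-Ab1, Cd74 or Ciita. The Y box core was searched as GATTGG on both strands, and the X box by the letters AAC lying 26 to 30 bases before GATTGG on the same strand. That spacing was set after the sequences had been seen. GATTGG was found for 7 of the 7 genes, against 16.1% of 32851 windows of the same length. The pair was found for 6 of the 7, all but H2-DMa, against 1.05% of windows. Capitals mark AAC and GATTGG in these 66-base stretches of GRCm38.p6, each read 5′ to 3′ on the strand of its gene.
H2-Aa, chr17:34287852-34287917, minus strand: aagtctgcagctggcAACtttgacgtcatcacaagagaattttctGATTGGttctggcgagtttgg
H2-Eb1, chr17:34305762-34305827, plus strand: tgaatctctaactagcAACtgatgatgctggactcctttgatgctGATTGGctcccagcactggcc
H2-Eb2, chr17:34325529-34325594, plus strand: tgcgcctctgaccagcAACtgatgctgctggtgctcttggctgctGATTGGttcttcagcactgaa
H2-DMb1, chr17:34153084-34153149, plus strand: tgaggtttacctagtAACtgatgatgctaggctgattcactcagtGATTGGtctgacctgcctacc
H2-DMb2, chr17:34145113-34145178, plus strand: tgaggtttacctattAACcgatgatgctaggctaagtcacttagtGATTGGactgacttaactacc
H2-Oa, chr17:34092290-34092355, plus strand: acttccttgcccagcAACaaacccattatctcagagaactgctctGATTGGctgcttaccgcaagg
The distance from AAC to GATTGG was 29 bases in H2-Eb1 and H2-Eb2 and 30 bases in the other 4. GATTGG began 44 to 101 bases before the start of transcription, nearest in H2-Oa and farthest in H2-Eb2. A match of letters is a description and shows no binding.

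Libraries held 54.03 to 97.48 M estimated reads, of which 43.9% to 73.0% lay on immunoglobulin genes. The targeted genes followed the labels: Ccnd1 was at 258 to 983 CPM (read counts scaled to library size) in the Ccnd1 and Ccnd1-Ikk2ca libraries and at no more than 3.55 elsewhere. Nsd2 was at 174 to 824 CPM in the MMSET and MMSET-Ikk2ca libraries and at no more than 9.96 elsewhere. Ikbkb, which encodes IKK2, was at 42.1 to 83.4 CPM in the 4 groups carrying Ikk2ca and at no more than 39.0 elsewhere. Sdc1, which encodes the CD138 of the sort, was at 373 ± 30.5 CPM in Control(D), 459 ± 90.7 in Ccnd1-Ikk2ca, 403 ± 70.8 in Control(M) and 372 ± 66.2 in MMSET-Ikk2ca (SD). The summed CPM of the 9 plasma cell markers did not stay level. It was 7693 to 19679 in Ccnd1-Ikk2ca against 54394 to 100169 in Control(D). In MMSET-Ikk2ca it was 4687 to 6697 against 31287 to 42029 in Control(M), without overlap in either cohort. Such a sum rests mostly on the most abundant markers. Per gene, the median log2 fold change of the 9 was -0.44 in Ccnd1-Ikk2ca and -0.66 in MMSET-Ikk2ca, with 4 lower in each. Cohort and anything handled with it cannot be told apart.

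In control plasma cells Cd74 stood far above every class II chain. On the length-scaled TPM scale, which allows genes to be compared, Control(D) held 1037 ± 267 TPM of Cd74, 136 ± 72.7 of H2-Ab1, 74.3 ± 35.3 of H2-Eb1 and 54.5 ± 34.6 of H2-Aa (SD, n = 4). These are the beta chains of I-A and I-E and the alpha chain of I-A. The H2-DM genes followed, with 7.67 ± 3.27 TPM of H2-DMa, 7.34 ± 6.85 of H2-DMb2 and 3.25 ± 2.10 of H2-DMb1. H2-DMa exceeded H2-DMb1 within each Control(D) library, while the place of H2-DMb2 varied between libraries. H2-Oa was at 2.54 ± 2.50 TPM, H2-Eb2 at 1.41 ± 0.277 and Ciita at 0.661 ± 0.636. The order in Control(M) was led by the same 4 genes, with 1378 ± 412 TPM of Cd74, 151 ± 92.0 of H2-Ab1, 72.3 ± 61.0 of H2-Aa and 70.0 ± 56.2 of H2-Eb1. The ranges of H2-Aa and H2-Eb1 overlapped in both control groups, though H2-Eb1 exceeded H2-Aa within each Control(D) library.

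The control libraries differed widely among themselves in most class II transcripts and less in Cd74 and H2-Eb2. In Control(D), Ciita was at 7.01, 5.63, 0.101 and 16.6 CPM in replicates 1 to 4, and H2-Oa at 8.50, 2.24, 0.423 and 12.7. H2-Ab1 was at 439, 266, 188 and 572 CPM and Cd74 at 3063, 2343, 2685 and 3609. Of these 4 genes, replicate 3 was lowest and replicate 4 highest in all but Cd74, where replicate 2 was lowest. H2-Eb2 did not keep that order, at 14.7, 9.97, 13.3 and 13.3 CPM. In Control(M), Ciita was at 6.05, 0, 33.1 and 5.30 CPM, H2-Oa at 4.73, 0.322, 15.6 and 1.25, and H2-Ab1 at 368, 145, 752 and 404. Cd74 was at 4061, 2612, 4553 and 4511 CPM. Replicate 3 was highest and replicate 2 lowest in each of these 4 genes. The summed B cell markers were also highest in replicate 3, at 842 CPM against 442 to 539 in the others. H2-Eb2 was at 17.7, 10.4, 14.4 and 10.9 CPM in Control(M), highest in replicate 1. Between Control(M) and Control(D), edgeR's quasi-likelihood test called 0 of the 10 genes (0 with an unadjusted p below 0.05, and 0 in DESeq2 and in limma voom), with 0.0409% of 17116 genes called.

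**Figure D1:**
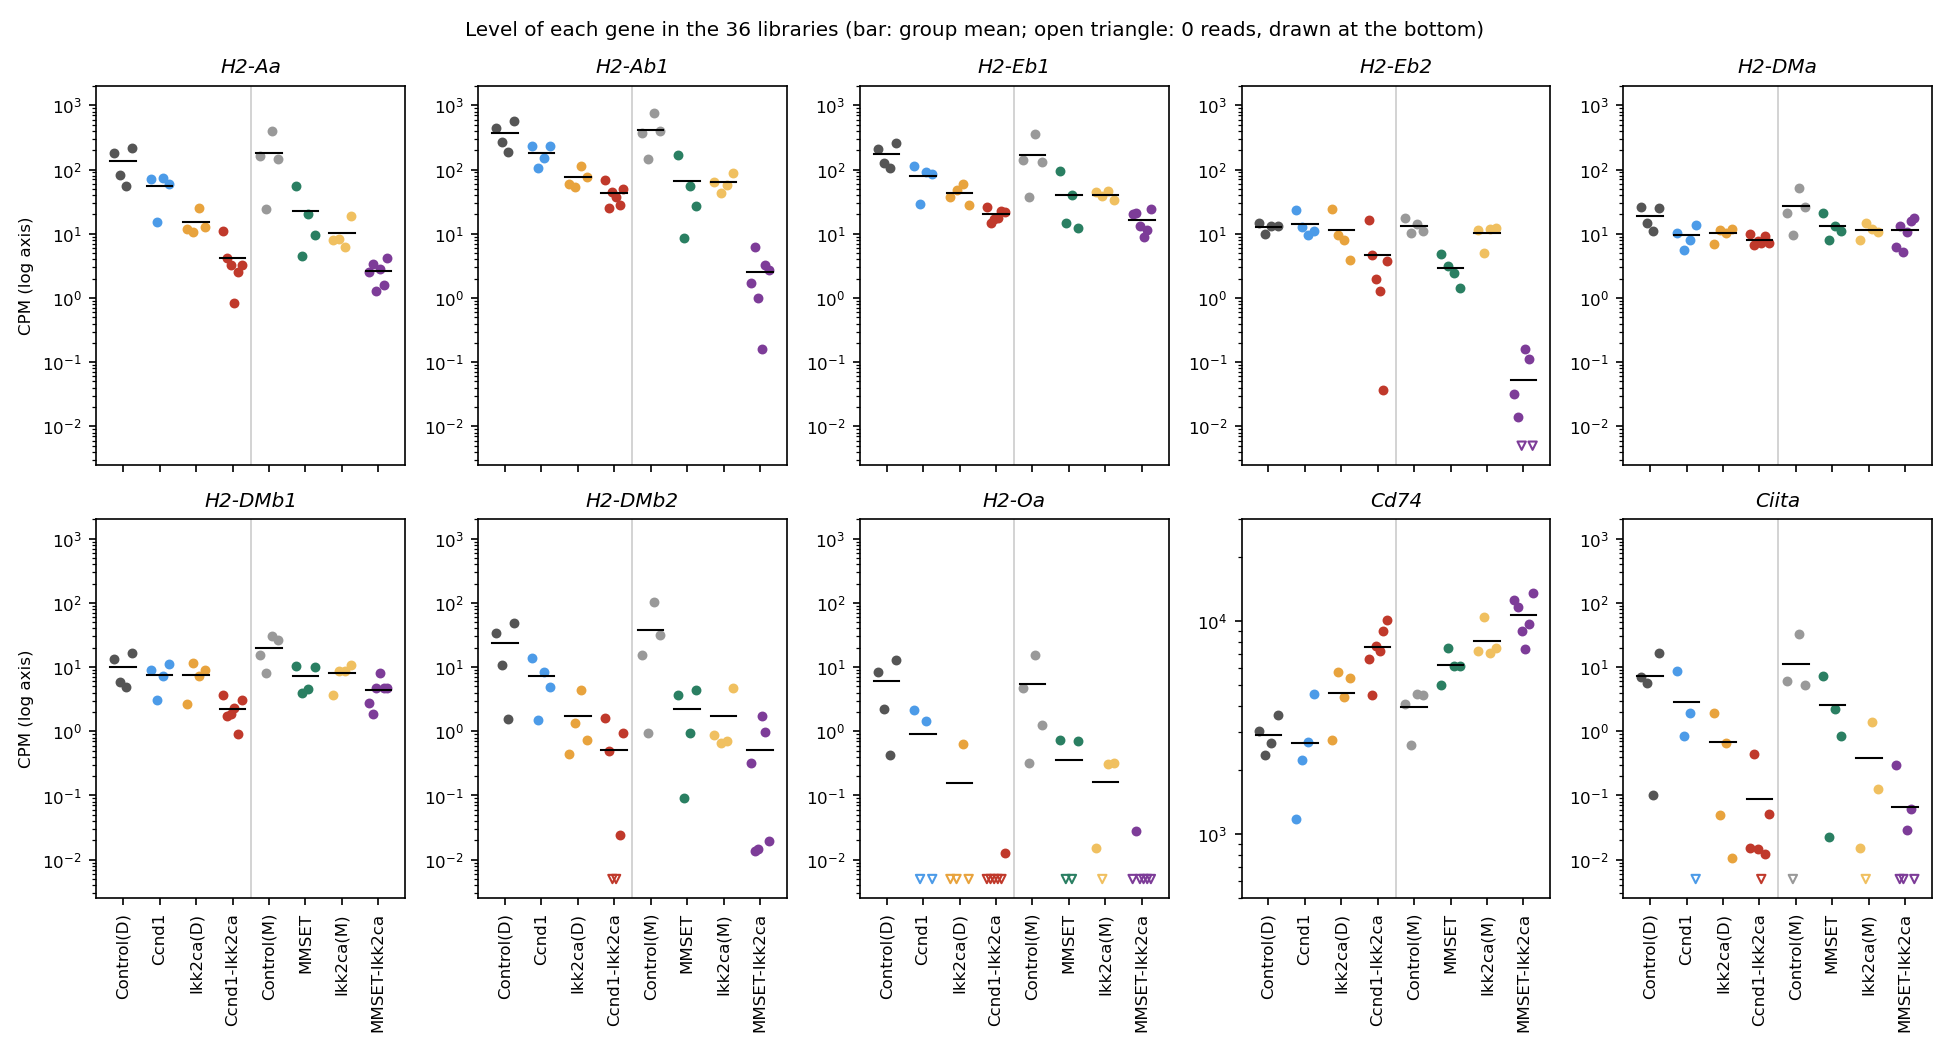
Level of each of the 10 genes in the 36 libraries, in CPM on a log axis. Points are libraries, bars are group means (not drawn under 0.005 CPM) and open triangles are libraries with 0 reads, drawn at the bottom. The axis of Cd74 is its own. In each cohort the double group has the lowest mean, except for Cd74, which is highest there, and for H2-DMa in the M cohort.

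With both transgenes of the D cohort, class II transcripts fell and Cd74 rose. Against Control(D), 8 of the 10 genes were lower in Ccnd1-Ikk2ca and 1, Cd74, was higher, where 5.32% of the 15323 genes tested were lower and 5.83% higher. The 10 genes had a median log2 fold change of -3.12, against 0.02 over all genes tested. Groups did not overlap for 7 of the 10, 6 lower and 1 higher, against 5.89% and 6.9% of all genes. In bulk RNA, fewer cells of a type and less RNA per cell cannot be told apart.

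The classical chains H2-Aa, H2-Ab1 and H2-Eb1 fell, each without overlap. H2-Aa, the I-A alpha chain, was at 180, 83.3, 55.4 and 220 CPM in Control(D), and between 0.842 and 11.1 CPM (median 3.26) in the 6 Ccnd1-Ikk2ca libraries. Each double library lay below each control. H2-Aa fell by 5.01 ± 0.65 on the log2 scale (SE, adjusted p = 0.000328 by edgeR, n = 6 and 4). H2-Ab1, its beta chain partner, lay between 25.5 and 69.2 CPM (median 41.04), below the lowest control at 188 CPM, and fell by 3.11 ± 0.34 (adjusted p = 2.93e-05). H2-Eb1, the I-E beta chain, lay between 14.7 and 26.1 CPM (median 19.8) against 207, 129, 105 and 259 in the controls, again with no overlap, and fell by 3.13 ± 0.32 (adjusted p = 2.05e-05). H2-Eb2, an additional E beta gene, lay between 0.0364 and 16.5 CPM (median 2.85) against 14.7, 9.97, 13.3 and 13.3 in the controls. Replicate 1 of Ccnd1-Ikk2ca, at 16.5 CPM, was above all controls, and the change of -1.45 ± 0.85 did not pass (adjusted p = 0.320). Without that replicate the adjusted p of H2-Eb2 was 0.0441, and over all alternatives it ran from 0.0177, with limma voom, to 0.449.

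The peptide exchange genes fell as well. H2-DMa, the H2-DM alpha chain, fell by 1.27 ± 0.26 (adjusted p = 0.00494), from 19.2 ± 7.40 to 7.96 ± 1.24 CPM (SD). H2-DMb1 fell by 2.17 ± 0.46 (adjusted p = 0.00562) and H2-DMb2 fell by 5.54 ± 1.32 (adjusted p = 0.0153, lost with limma voom at 0.0657 and at most 0.0860 over all alternatives). These beta chain genes are near-identical copies, so the split of reads between them is uncertain. With H2-DMb1 and H2-DMb2 summed, the change was -3.62 (adjusted p = 0.00167). H2-DMb2 had no reads in 2 of the 6 double libraries, while H2-DMb1 had 74 to 245 in each. H2-Oa, the alpha chain of the H2-DM inhibitor, had 550, 159, 25 and 783 reads in the controls and 1 read over the 6 double libraries together. Its share of reads was 2306-fold lower (95% exact counting interval 413 to 91126-fold, counting error only), and the edgeR test passed with an adjusted p of 0.00394.

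Ciita had 454, 400, 6 and 1024 reads in Control(D) and 1, 34, 1, 0, 1 and 4 reads in Ccnd1-Ikk2ca. Control replicate 3 overlapped the double libraries and the other 3 controls did not. Ciita fell by 6.33 ± 1.71 (adjusted p = 0.0241). That call was lost without Control(D) replicate 4 (adjusted p = 0.0559), without Ccnd1-Ikk2ca replicate 3 (0.0530) or 6 (0.0515) and with no filter on low counts (0.0654). Over all alternatives the adjusted p ran from 0.000310 to 0.142.

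Cd74 went the other way. It was at 3063, 2343, 2685 and 3609 CPM in Control(D) and between 4493 and 10093 CPM (median 7439) in Ccnd1-Ikk2ca, with no overlap. Cd74 rose by 1.36 ± 0.31 (adjusted p = 0.0102), and its adjusted p stayed between 0.000258 and 0.0425 over the 27 alternatives. The calls of H2-Aa, H2-Ab1, H2-Eb1, H2-DMa, H2-DMb1 and H2-Oa also passed under each alternative run for this comparison.

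Markers of other cells moved with these groups. The 10 B cell markers summed to 237 to 335 CPM in Ccnd1-Ikk2ca and 394 to 576 in Control(D), with 4 lower of 10 tested, among them Pax5, and Cr2 at 0 in the double group. Per gene, the median log2 fold change of the B cell markers was -3.12, with 7 of 10 at an unadjusted p below 0.05 by edgeR. The 10 monocyte and macrophage markers summed to 8.37 to 74.1 CPM against 80.5 to 147, with 1 lower of 10. Neither the B cell nor the macrophage sum overlapped between the groups. The 8 dendritic cell markers, which would come with high class II, summed to 0.874 to 4.55 CPM against 2.41 to 5.90, with none of the 4 tested called and Itgax and Clec9a at 0 in the double group. Neutrophil markers summed to 1.11 to 218 CPM against 42.7 to 531, with 1 lower of 8, and T and NK cell markers to 1.11 to 5.85 against 3.55 to 18.5, with 1 lower of 4 tested. The part of these cells in the class II result was not tested. Across the 9 plasma cell markers 4 were lower and none higher, including Jchain and Mzb1.

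With MMSET and Ikk2ca together class II transcripts also fell and Cd74 rose. Against Control(M), 8 of the 10 genes were lower in MMSET-Ikk2ca and Cd74 was higher, against 3.41% and 3.5% of the 15416 genes tested. The median log2 fold change was -6.18, against 0.01 over all genes. Groups did not overlap for 7 genes, 6 lower and 1 higher, where 4.48% and 4.79% of all genes did so.

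The classical chains H2-Ab1, H2-Aa and H2-Eb1 fell, and so did the additional gene H2-Eb2. H2-Ab1 was at 368, 145, 752 and 404 CPM in Control(M) and between 0.161 and 6.25 CPM (median 2.19) in MMSET-Ikk2ca. Even the lowest control was far above the highest double library. H2-Ab1 fell by 7.39 ± 0.99 (adjusted p = 0.000531 by edgeR). H2-Aa was at 164, 24.2, 400 and 146 CPM against 1.27 to 4.17 (median 2.68) and fell by 6.14 ± 0.79 (adjusted p = 0.000371). H2-Eb1 lay at 9.04 to 24.3 CPM (median 16.6) against 143, 36.7, 357 and 133, also without overlap, and fell by 3.35 ± 0.59 (adjusted p = 0.00274). H2-Eb2 was almost absent, with 2, 1, 0, 11, 9 and 0 reads in the double libraries and 1139, 645, 888 and 690 in the controls. It fell by 7.95 ± 0.78 (adjusted p = 6.47e-06).

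H2-DMa was the class II gene that did not pass here. It lay at 5.17 to 17.5 CPM (median 11.9) against 21.3, 9.45, 51.5 and 25.9 in Control(M), and the groups overlapped through control replicate 2. Its change was -1.24 ± 0.40 (adjusted p = 0.0670), and without that replicate the adjusted p was 0.0241 (0.0232 to 0.315 over all alternatives). Overlapping transcripts of Brd2 and unnamed gene models lie at H2-DMa, and no strand was used in counting. H2-DMb1 fell by 2.18 ± 0.43 (adjusted p = 0.00431) and H2-DMb2 fell by 6.23 ± 1.49 (adjusted p = 0.0216). With both summed the change was -3.55 (adjusted p = 0.00225). The H2-DMb2 call was lost without Control(M) replicate 3 and with only the groups compared (adjusted p = 0.0555 in each; 2.92e-05 to 0.128 over all alternatives, the highest with limma voom). H2-Oa had 305, 20, 960 and 79 reads in the controls and 2 reads over the 6 double libraries, a share 996-fold lower (95% exact counting interval 275 to 8231-fold), with an adjusted p of 0.00436 by edgeR and of at most 0.119 over all alternatives, at which the call was lost.

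Ciita had 390, 0, 2044 and 334 reads in Control(M) and 19, 0, 0, 2, 5 and 0 in MMSET-Ikk2ca. Because 1 control had no reads, the groups overlapped. Ciita fell by 7.42 ± 1.97 (adjusted p = 0.0322), a call that was lost without Control(M) replicate 3 (0.104) and without each of MMSET-Ikk2ca replicates 2 to 6 (0.0546 to 0.0633). It was also lost without the low-count filter (0.0738) and with an indicator of Xist (0.0720). Over all alternatives the adjusted p ran from 0.000385 to 0.114, the highest with limma voom.

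Cd74 lay at 7380 to 13545 CPM (median 10659) in MMSET-Ikk2ca and at 4061, 2612, 4553 and 4511 in Control(M), without overlap. It rose by 1.43 ± 0.19 (adjusted p = 0.000163). The calls of Cd74, H2-Aa, H2-Ab1, H2-Eb1, H2-Eb2 and H2-DMb1 passed under each alternative run for this comparison. The B cell markers summed to 267 to 400 CPM against 442 to 842, with 5 lower of 9 tested. Per gene, their median log2 fold change was -1.47, with 7 of 9 at an unadjusted p below 0.05 by edgeR. Monocyte and macrophage markers summed to 16.6 to 54.3 CPM against 75.7 to 131, with Lyz2 lower and C1qb higher. Dendritic cell markers summed to 0.693 to 4.16 CPM against 0.951 to 6.75, with none of 5 called and Clec9a and Cd209a at 0 in the double group. Neutrophil markers summed to 0.774 to 12.8 CPM against 40.9 to 198, with 2 of 8 lower (6 with an unadjusted p below 0.05) and a median log2 fold change of -4.61. T and NK cell markers summed to 0.389 to 2.40 CPM against 3.58 to 12.5, with none of 5 tested called. The B cell, macrophage, neutrophil and T and NK cell sums did not overlap between the groups. The part of these cells in the class II changes was not tested. Of 9 plasma cell markers 4 were lower, among them Xbp1 and Mzb1.

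**Figure D2:**
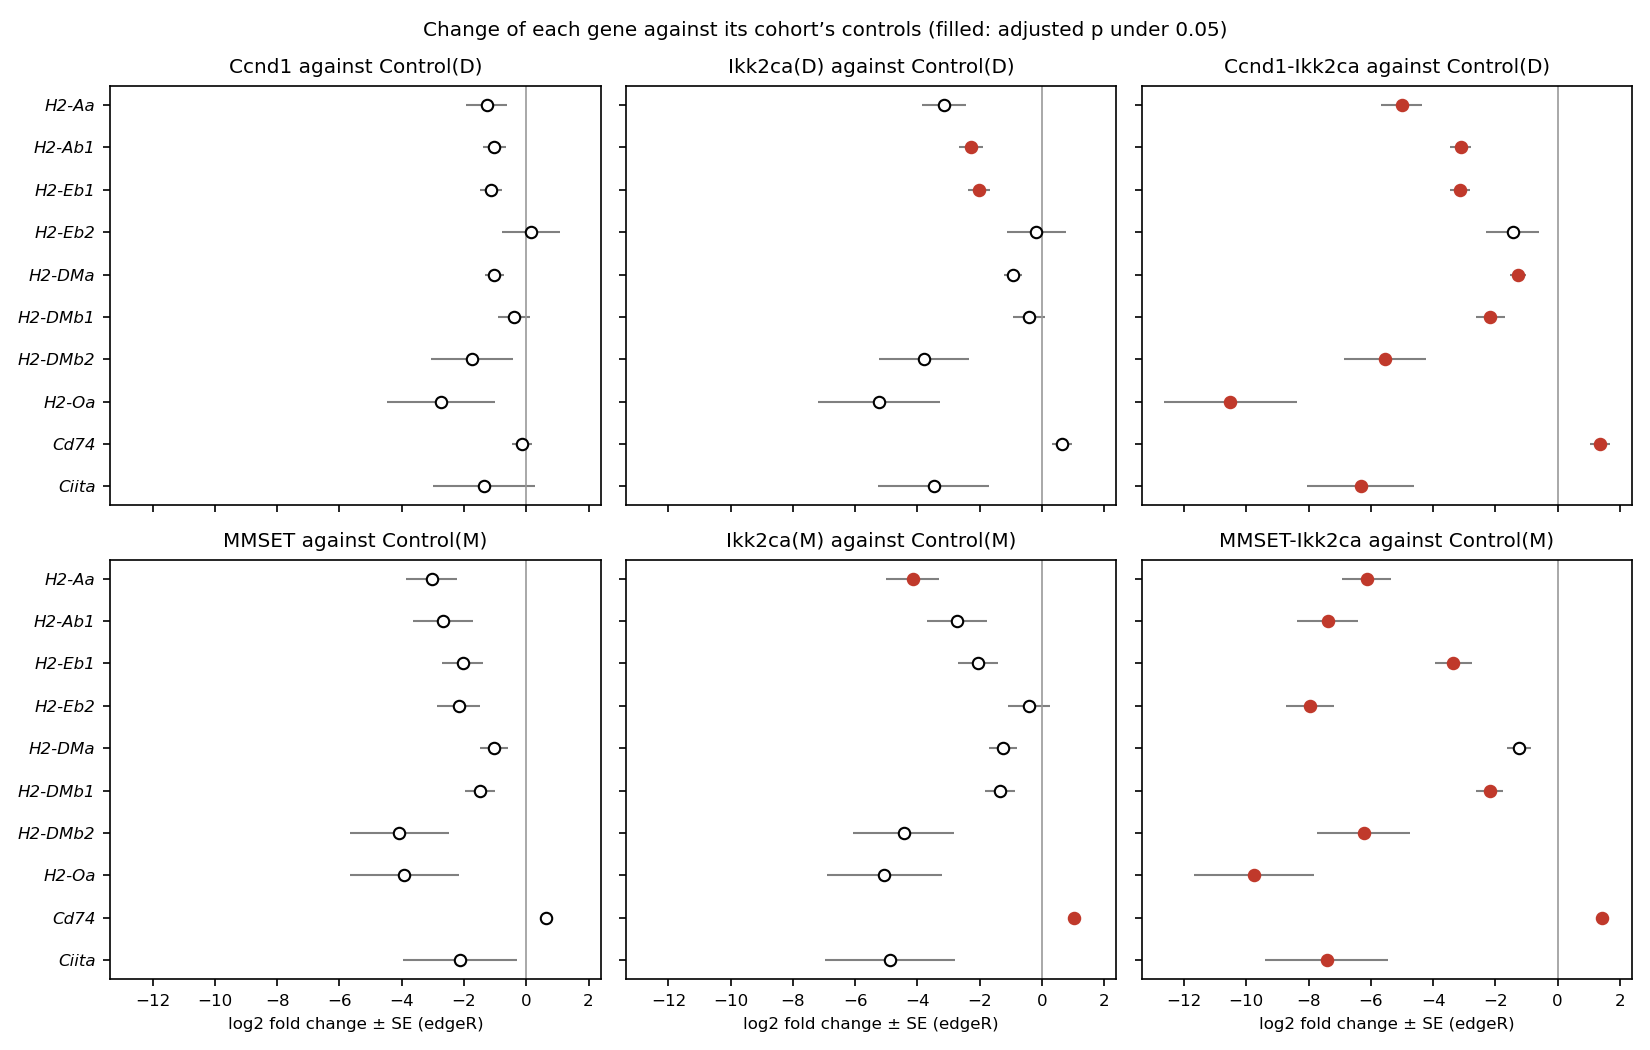
Log2 fold change of each gene against the controls of its cohort, from edgeR, with the standard error as bars. Filled points passed an adjusted p under 0.05. In both Ikk2ca double groups every gene but Cd74 lies to the left, 8 of them filled, and Cd74 lies to the right, filled. Fitted values of H2-Oa in the double groups rest on 1 and 2 reads and are no measured fold.

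In each cohort edgeR called fewer of the 10 genes with Ikk2ca alone (4 libraries) than with both transgenes (6 libraries). Against Control(D), 2 of 10 genes were lower in Ikk2ca(D) and none higher, where 0.0392% of genes were lower and 0.398% higher. The median was -2.15 against 0.01. An unadjusted p below 0.05 was found for 6 of the 10, and for 2045 of the 15323 genes tested. For 3 of the 10, all lower, no library overlapped the other group, against 3.46% of all genes. H2-Ab1 was at 60.2, 53.99, 112 and 76.9 CPM, below each control, and fell by 2.28 ± 0.38 (adjusted p = 0.0116 by edgeR). H2-Eb1 was at 36.9, 48.1, 60.1 and 28.1 CPM, also below each control, and fell by 2.02 ± 0.36 (adjusted p = 0.0152). Without Ikk2ca(D) replicate 2, H2-Ab1 and H2-Eb1 both had an adjusted p of 0.0508, and neither passed with an indicator of Xist as a covariate (0.0901 and 0.118). Xist, the RNA of the inactive X chromosome, was above 10 CPM in 4 of 4 Ikk2ca(D) libraries and 1 of 4 Control(D) libraries, and in 4 of 4 of Ikk2ca(M) and 2 of 4 of Control(M), so libraries with Xist were not spread evenly over these groups. With all 36 libraries in 1 fit they were at 0.162 and 0.0802. H2-Aa, at 11.9, 10.6, 25.5 and 12.7 CPM, lay below each control with a change of -3.15 ± 0.71 that did not pass (adjusted p = 0.0745). Cd74 was at 2757, 5793, 4403 and 5421 CPM, above the controls in 3 of 4 libraries (0.65 ± 0.33, adjusted p = 0.414).

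Against Control(M), 1 gene was lower and 1 higher in Ikk2ca(M), where 0.143% and 0.506% of genes were so. The median was -2.39 against -0.01. An unadjusted p below 0.05 was found for 9 of the 10, and for 1912 of the 15416 genes tested. There was no overlap for 4 of the 10, 3 lower and 1 higher, against 3.51% and 4.44% of all genes. H2-Aa was at 8.01, 8.32, 6.30 and 18.8 CPM, below each control, and fell by 4.16 ± 0.86 (adjusted p = 0.0402). That call was lost without each of the 4 Ikk2ca(M) replicates (0.0568 to 0.157), in 9 other fits leaving out a library of the cohort, with limma voom (0.0522), without the low-count filter (0.0716) and with only the groups compared (0.105). Cd74 was at 7206, 10500, 7043 and 7445 CPM, above each control, and rose by 1.02 ± 0.20 (adjusted p = 0.0160), which was lost without Ikk2ca(M) replicate 2 (0.0753), with only the groups compared (0.0604) and with all 36 libraries in 1 fit (0.0962). H2-Ab1, at 64.4, 42.5, 57.5 and 89.3 CPM, lay below each control with a change of -2.73 ± 0.95 (adjusted p = 0.257). H2-Eb2 was at 11.3, 4.94, 11.9 and 12.4 CPM, with 3 of 4 libraries inside the control range (-0.41 ± 0.67, adjusted p = 0.930). The change with Ikk2ca did not differ between cohorts for any of the 10 genes by edgeR (0% of 17116 genes passed, 0 of the 10 with an unadjusted p below 0.05, and 0 in DESeq2 or limma voom). The difference for Cd74 was 0.38 ± 0.40 and for H2-Aa -0.999 ± 1.02 on the log2 scale.

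Macrophage markers were high in single libraries of these groups. Their sum was 287 CPM in Ikk2ca(D) replicate 3 against 24.8 to 44.8 in the other 3, and 310 CPM in Ikk2ca(M) replicate 4 against 32.0 to 44.96 in the others. H2-Aa and H2-DMb2 were also highest in those replicates, at 25.5 and 4.36 CPM in the first and 18.8 and 4.79 CPM in the second. H2-Eb1 was lowest of its group in the second, at 33.4 CPM. Macrophage markers were also highest of their group in Ccnd1 replicate 2 (319 CPM) and Control(D) replicate 3 (147 CPM). H2-Aa was lowest of its group there, at 15.4 and 55.4 CPM. In every other group H2-Aa was highest in the library with the most macrophage markers. The part of macrophages in those values was not tested. B cell markers summed to 314 to 382 CPM in Ikk2ca(M) against 442 to 842 in Control(M), without overlap. None of 9 tested was called, and their median log2 fold change was -1.07. In Ikk2ca(D) the B cell sum of 304 to 447 CPM overlapped that of Control(D), 394 to 576. None of 10 was called there, with a median of -0.37. The part of B cells was not tested either.

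Ccnd1 alone gave no call. Of the 10 genes 0 passed in edgeR (3 with an unadjusted p below 0.05, and 0 in DESeq2 and in limma voom), where 0.00653% of genes passed, and the median was -1.08 against 0.01. H2-Eb1 was at 114, 29.1, 90.3 and 85.8 CPM, below the lowest control in 3 of 4 libraries (-1.13 ± 0.35, adjusted p = 0.739). H2-Ab1 was at 233, 105, 152 and 229 CPM, below the lowest control in 2 of 4 (-1.02 ± 0.37, adjusted p = 0.739). Cd74 was at 1178, 2233, 2719 and 4543 CPM, on both sides of the control range (-0.13 ± 0.33, adjusted p = 1). Ciita was at 8.65, 0.835, 1.93 and 0 CPM (-1.36 ± 1.64, adjusted p = 1).

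With MMSET alone the group means lay between those of control and double for all 10 genes. edgeR called 0 of 10 genes, where 0.649% of genes passed in either direction, but 9 of the 10 had an unadjusted p below 0.05. The count was 4 in DESeq2 and 1 in limma voom, where 4.39% and 0.519% of all genes were called. The median was -2.15 against 0.01. For 2 of the 10, 1 lower and 1 higher, groups were apart, against 2.94% and 3.13% of all genes. H2-Ab1 was at 170, 8.51, 54.9 and 27.4 CPM, below the lowest control in 3 of 4 libraries (-2.68 ± 0.95, adjusted p = 0.240). H2-Aa was at 55.1, 4.55, 20.1 and 9.58 CPM, below the lowest control in 3 of 4 (-3.04 ± 0.82, adjusted p = 0.126). H2-Eb2, at 4.83, 3.15, 2.45 and 1.41 CPM, lay below each control (-2.18 ± 0.70, adjusted p = 0.181). Cd74, at 4993, 7510, 6139 and 6169 CPM, lay above each control (0.65 ± 0.20, adjusted p = 0.153). B cell markers summed to 237 to 395 CPM in MMSET against 442 to 842 in Control(M), without overlap. Of 9 tested 1 was lower and 5 had an unadjusted p below 0.05 by edgeR, with a median log2 fold change of -2.21. The part of B cells in the class II values was not tested. Replicate 1 of MMSET held the highest H2-Aa, H2-Ab1 and Ciita of the group, and also 815 CPM of macrophage and 2675 CPM of neutrophil markers, against at most 108 and 168 in the other 3 libraries. Without it, 2 of the 10 genes passed, H2-Aa (adjusted p = 0.0349) and H2-Eb1 (0.0381). Their ranges over all alternatives were 0.000757 to 0.471 and 0.0192 to 0.582.

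When Ikk2ca was added to the other transgene, edgeR called class II genes lower in both cohorts, though most calls in the M cohort depended on the processing. Against Ccnd1, 5 of 10 genes were lower in Ccnd1-Ikk2ca and Cd74 was higher, where 3.39% and 2.81% of genes were so. Overlap was absent for 3 of the 10, all lower, against 4.36% of genes. H2-Aa fell by 3.73 ± 0.62 (adjusted p = 0.00280), H2-Ab1 by 2.09 ± 0.33 (adjusted p = 0.00118) and H2-Eb1 fell by 2.002 ± 0.31 (adjusted p = 0.00104), each with all 6 double libraries below all 4 Ccnd1 libraries. H2-DMb1 and H2-Oa also fell (adjusted p = 0.0273 and 0.0240), and both calls were lost in 5 of the fits leaving out a library and with limma voom (0.0840 and 0.312). Cd74 rose by 1.49 ± 0.31 (adjusted p = 0.00932), with 5 of 6 double libraries above the highest Ccnd1 library.

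Against MMSET, 3 of 10 genes were lower in MMSET-Ikk2ca and Cd74 was higher, where 0.941% and 0.642% of genes were so. Groups did not overlap for 3 of the 10, all lower, against 1.86% of genes. H2-Eb2 fell by 5.78 ± 0.73 (adjusted p = 0.000414), H2-Ab1 by 4.71 ± 0.88 (adjusted p = 0.0148) and H2-Aa by 3.10 ± 0.71 (adjusted p = 0.0437), each without overlap. Cd74 rose by 0.78 ± 0.18 (adjusted p = 0.0372). Without MMSET replicate 1, H2-Eb2 alone passed, with H2-Ab1 at 0.0535, Cd74 at 0.126 and H2-Aa at 0.170. With only the groups compared, H2-Eb2 and Cd74 were at 0.0594 and H2-Ab1 at 0.0950, and with an indicator of Xist Cd74 was at 0.0655, H2-Ab1 at 0.0750 and H2-Aa at 0.126. The H2-Aa call was also lost without each MMSET-Ikk2ca library in turn (0.0551 to 0.0917) and without the low-count filter (0.0742). With limma voom H2-Aa was at 0.501 and H2-Ab1 at 0.215. With a replicate block H2-Aa was at 0.301, H2-Ab1 at 0.234 and Cd74 at 0.193. Cd74 was at 0.126 with all 36 libraries in 1 fit, and was also lost without MMSET-Ikk2ca replicate 1, 2 or 6 (0.0815 to 0.0825).

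The double groups were next compared with Ikk2ca alone. Against Ikk2ca(D), edgeR called 0 of 10 genes in Ccnd1-Ikk2ca (6 with an unadjusted p below 0.05, 3 in DESeq2 and 0 in limma voom), where 0.424% of genes passed in either direction. Against Ikk2ca(M), 2 of 10 were lower in MMSET-Ikk2ca (6 with an unadjusted p below 0.05), where 0.532% of genes were lower. Whether these effects differed between the cohorts was not tested. Groups did not overlap for 4 of the 10, all lower, against 2.22% of genes. H2-Eb2 fell by 7.55 ± 0.77 (adjusted p = 3.63e-05) and H2-Ab1 by 4.66 ± 0.88 (adjusted p = 0.0194), each without overlap. H2-Ab1 did not pass without Ikk2ca(M) replicate 4 (0.0570) or MMSET-Ikk2ca replicate 1 (0.0537) or 3 (0.0512), with limma voom (0.0936) or with an indicator of Xist (0.132), and its adjusted p ran from 2.02e-08 to 0.180 over all alternatives.

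A sum of the single changes on the log2 scale was compared with the change of the double group. In the D cohort 0 of 10 genes departed from that sum (0 with an unadjusted p below 0.05, and 0 in DESeq2 and in limma voom), with 0.0261% of genes called in either direction. In the M cohort H2-Eb2 fell by 5.37 ± 0.98 beyond the sum (adjusted p = 0.0346), where 0.0778% of genes were lower. That call was lost in 11 of the 18 fits that left out 1 library, including each of the 4 Control(M) and 4 Ikk2ca(M) libraries, with adjusted p between 0.0522 and 0.106, and also with an indicator of Xist (0.0983) and all 36 libraries in 1 fit (0.0797).

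The double groups were also compared directly, across cohorts. MMSET-Ikk2ca had lower levels than Ccnd1-Ikk2ca for 2 of the 10 genes, where 1.57% of genes were lower. The first group lay wholly below the other for 1 of the 10, against 1.02% of genes. H2-Ab1 was at 0.161 to 6.25 CPM against 25.5 to 69.2, without overlap (-4.08 ± 0.64, adjusted p = 0.000353 by edgeR, and 0.0809 with limma voom). H2-Eb2 was at 0 to 0.161 CPM against 0.0364 to 16.5, with 4 of 6 libraries below all of the other group (-6.45 ± 0.90, adjusted p = 4.96e-05). H2-Eb1 did not pass, at 9.04 to 24.3 CPM against 14.7 to 26.1 (-0.27 ± 0.43, adjusted p = 0.940), and neither did Cd74 (0.50 ± 0.23, adjusted p = 0.327). With each double group taken against its own controls, the change of H2-Eb2 differed by -6.50 ± 1.22 (adjusted p = 0.0107), where 0.117% of genes were lower. The same difference for H2-Ab1 was -4.27 ± 0.94 (adjusted p = 0.0507). The H2-Eb2 difference did not pass without Control(D) replicate 2 (adjusted p = 0.0551) or with only the groups compared (0.0538).

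Within libraries, the balance of the class II chains changed. Per length, H2-Ab1 exceeded H2-Eb1 in all 8 control libraries, with a median ratio of 1.83 (1.57 to 1.90) in Control(D) and 2.41 (1.83 to 3.67) in Control(M). The ratio was 1.81 (1.02 to 2.32) in Ccnd1-Ikk2ca. In MMSET-Ikk2ca it was 0.0789 (0.0153 to 0.235), so that H2-Eb1 exceeded H2-Ab1 in each of the 6 libraries. H2-Aa per H2-Ab1, the alpha and beta chain of I-A, had a median of 0.376 (0.321 to 0.448) in Control(D), 0.0886 (0.0244 to 0.178) in Ccnd1-Ikk2ca, 0.438 (0.179 to 0.576) in Control(M) and 1.504 (0.529 to 19.4) in MMSET-Ikk2ca. The median of the I-A pair thus lay below the control range in one double group and above it in the other. The extremes of 0.0153 and 19.4 in MMSET-Ikk2ca both came from replicate 4, which had 11 reads of H2-Ab1. These ratios are a description of values already tested.

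Cd74 per H2-Ab1, both in TPM, had a median of 179 (93.1 to 318) in Ccnd1-Ikk2ca, against 7.67 (6.18 to 13.9) in Control(D). The single groups lay between, at 56.6 (38.5 to 103) with Ikk2ca(D) and 18.3 (4.93 to 20.7) with Ccnd1. The median reached 6091 (1821 to 44938) in MMSET-Ikk2ca, against 10.9 (5.90 to 17.3) in Control(M), 114 (80.7 to 241) with Ikk2ca(M) and 163 (28.6 to 861) with MMSET. The value of 44938 came from MMSET-Ikk2ca replicate 4, which had 11 reads of H2-Ab1. Each library of the Ikk2ca, double and MMSET groups lay above all controls of its cohort, as did 3 of the 4 Ccnd1 libraries.

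**Figure D3:**
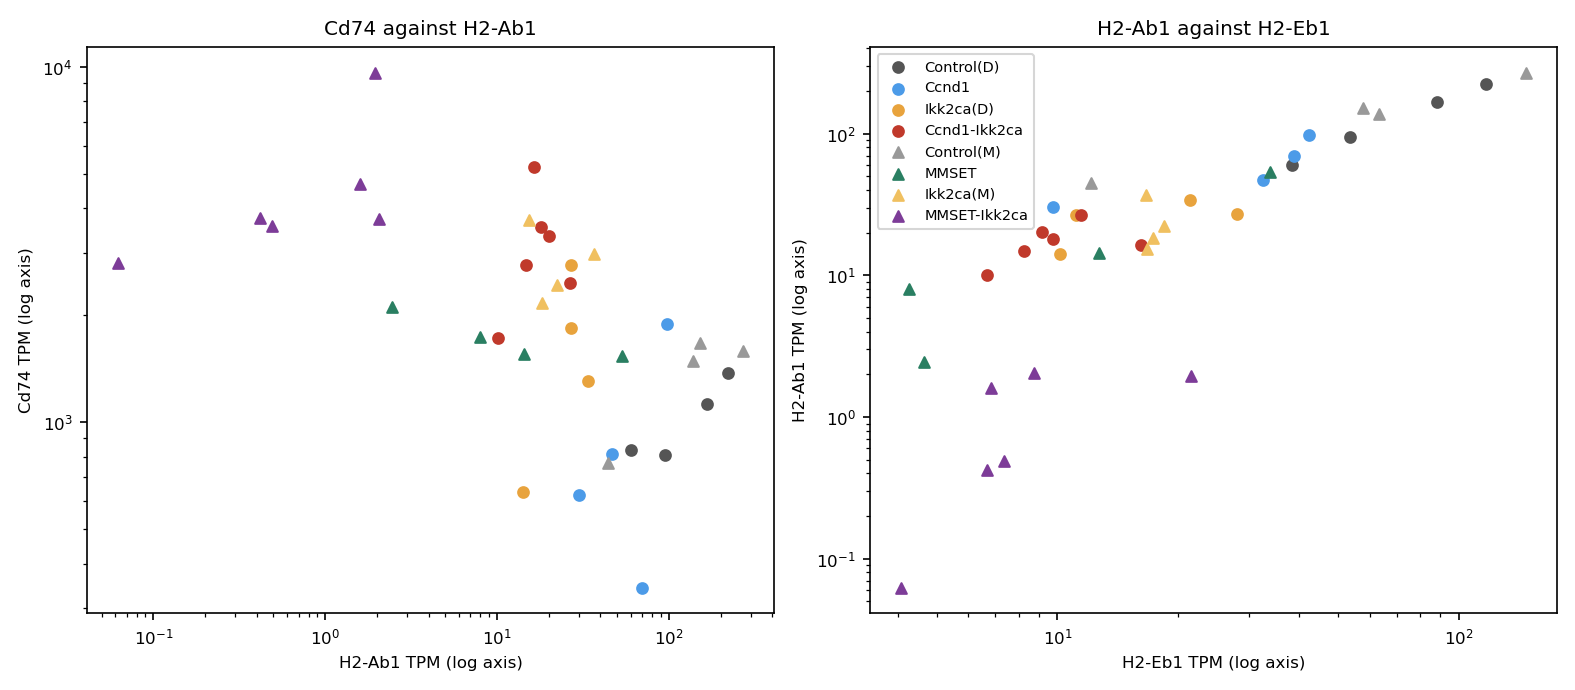
Cd74 against H2-Ab1 (left) and H2-Ab1 against H2-Eb1 (right), in TPM on log axes, 1 point per library (circles for the D cohort, triangles for the M cohort). MMSET-Ikk2ca libraries lie apart at low H2-Ab1, between 0.0625 and 2.05 TPM, with high Cd74.

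The genes whose levels ranked most like Cd74 over the 36 libraries included MHC class I genes and a subunit of the class I peptide transporter. By Spearman correlation of log2 CPM among 5640 genes, H2-D1 (0.916) and H2-K1 (0.909), the class I heavy chains, led, followed by the peptide transporter subunit Tap2 (0.907), Ifi211 (0.906) and Creb3 (0.904). H2-D1 and H2-K1 belong to a family of near-identical genes, so their own levels are uncertain. The genes most like H2-Ab1 were Lsp1 (0.928), Ptprcap (0.907), Man1a (0.901), Lat2 (0.893) and Fgl2 (0.891). Lsp1 and Ptprcap encode leukocyte proteins, a cytoskeletal one and a partner of CD45. The libraries share groups and cohorts, so these values describe likeness of pattern only.

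The class II genes lie together on chromosome 17 and most of their neighbours did not follow them. Between the starts of H2-Oa at 34092340 and H2-Eb2 at 34325665 (GRCm38) the 8 class II genes described here had a median log2 fold change of -3.12 in Ccnd1-Ikk2ca and -6.18 in MMSET-Ikk2ca. The 8 other genes tested in that stretch had medians of 0.63 and 0.34, with 3 higher in each. Tap1 and Tap2, subunits of the class I peptide transporter, and Psmb8, an immunoproteasome subunit, sit between H2-DMb1 and H2-Ab1. Tap1 rose by 0.73 ± 0.15 (adjusted p = 0.00513) in Ccnd1-Ikk2ca and by 1.16 ± 0.23 (adjusted p = 0.00442) in MMSET-Ikk2ca. Psmb8 rose by 0.85 ± 0.23 (adjusted p = 0.0246) and 0.53 ± 0.12 (adjusted p = 0.0120), and Tap2 by 0.86 ± 0.22 (adjusted p = 0.0166) and 0.81 ± 0.14 (adjusted p = 0.00181). H2-Ob, the beta chain partner of H2-Oa, lies in the same stretch and fell by 2.74 ± 0.65 (adjusted p = 0.0126) in Ccnd1-Ikk2ca, from 23.0 ± 13.7 to 3.44 ± 2.34 CPM (SD). In MMSET-Ikk2ca it was at 4.79 ± 4.77 CPM against 27.9 ± 26.2, which did not pass (adjusted p = 0.126). Of 11 neighbours listed for the wider region, H2-Ke6 was lower in MMSET-Ikk2ca (-0.63 ± 0.19, adjusted p = 0.0490).

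**Figure D4:**
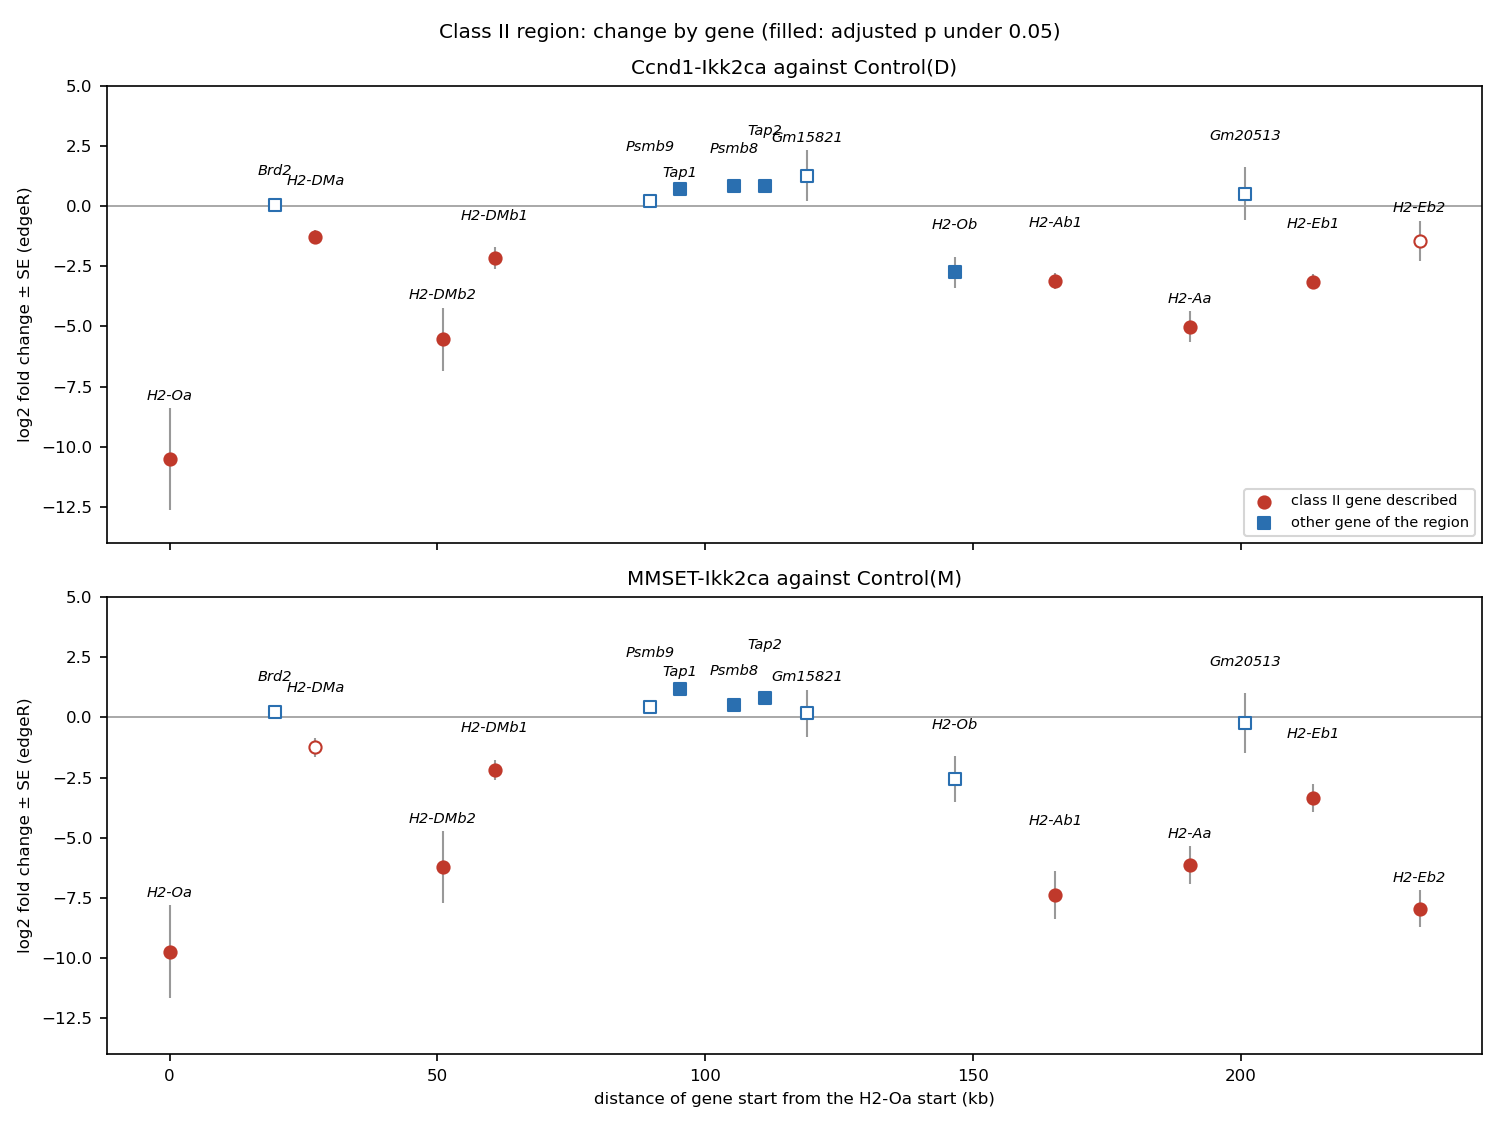
Log2 fold change with standard error (edgeR) of genes from H2-Oa to H2-Eb2, by distance of each gene's start from that of H2-Oa in kb. Circles are the class II genes described, squares the other genes, and filled symbols passed an adjusted p under 0.05. Class II genes lie below 0 and Tap1, Psmb8 and Tap2 between them above 0 in both double groups.

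Reads of Ciita were also split by where its annotated transcripts start, since the gene has alternative promoters. The annotation on chromosome 16 has a first start region (10480059 to 10480164), a middle one (10488178 to 10488279) and a last one (10489746 to 10489783). Most exons are shared, so the split is Salmon's estimate. In Control(D) the middle and last regions had 843 and 1029 reads and the first 12.1, and in Control(M) 1304, 1406 and 57.8. In Ccnd1-Ikk2ca the middle region had 0 reads, the last 1 and the first 40, of which 34 were in replicate 2. In MMSET-Ikk2ca they had 5, 0 and 21, with 19 of the 21 in replicate 1. Reads from the middle and last regions were thus at or near 0 in all 12 double libraries, with at most 5 in 1 library, and those of the first region were few in every group. A count of 0 allows up to 3 reads, and 3 reads are at most 0.0526 CPM in these libraries.

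**Figure D5:**
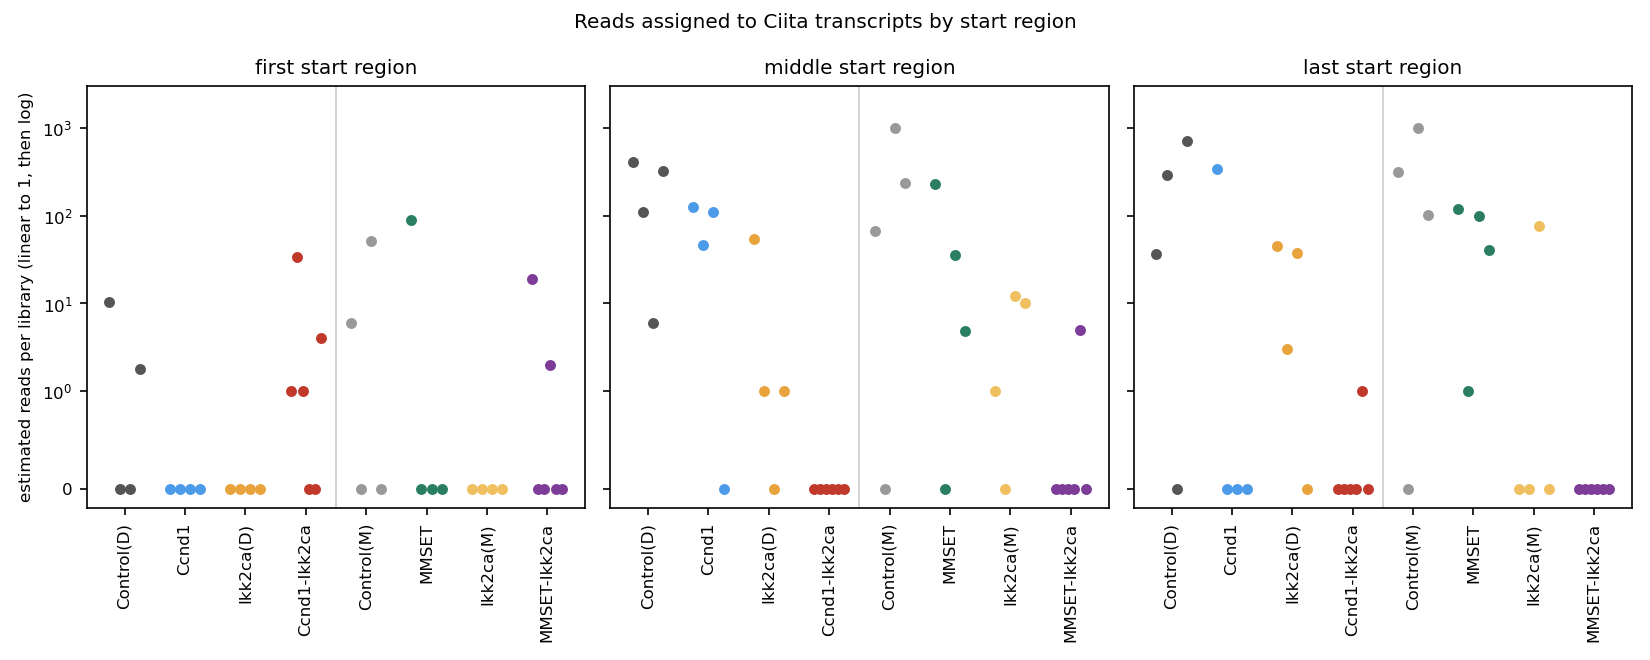
Estimated reads of Ciita transcripts in each library by start region, on an axis that is linear to 1 and logarithmic above. Control libraries hold up to 1005 reads in the middle region and the 12 double libraries at most 5.

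Cd74 makes a longer protein when an added thyroglobulin-type exon of 192 bases is spliced in. The share of Cd74 reads assigned to the 2 coding transcripts holding that exon was 8.57 ± 1.32% in Ccnd1-Ikk2ca (SD) and 6.33 ± 0.683% in Control(D). Ikk2ca(D) stood at 7.80 ± 2.22% and Ccnd1 at 7.08 ± 1.39%. The share was 6.84 ± 1.38% in MMSET-Ikk2ca and 6.97 ± 1.04% in Control(M), with Ikk2ca(M) at 8.55 ± 0.741% and MMSET at 8.76 ± 0.985%. The difference of 2.24 percentage points between Ccnd1-Ikk2ca and Control(D) had a two-sided exact permutation p of 0.0190, 0.114 after adjustment over 6 comparisons. None of the 6 passed after adjustment, and for MMSET-Ikk2ca the difference was -0.13 points (exact permutation p = 0.8286). The smallest p this test can give is 0.0286 for 4 against 4 libraries and 0.00952 for 6 against 4.

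No change of the factors that hold Ciita at class II promoters passed the test. Of the RFX, NF-Y and CREB genes, edgeR called 0 of 7 in each of the 6 comparisons with controls, with at most 2 at an unadjusted p below 0.05 in any 1 of them. Rfxank was at 15.7 ± 2.68 CPM in Ccnd1-Ikk2ca against 22.0 ± 3.30 in Control(D) (SD, adjusted p = 0.0856 by edgeR), and 17.6 ± 5.31 in MMSET-Ikk2ca against 19.3 ± 6.48. Nfyc was at 17.6 ± 4.75 against 20.7 ± 1.03 CPM in the D cohort (adjusted p = 0.532).

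Several regulators of Ciita in the B lineage fell in Ccnd1-Ikk2ca. In Ccnd1-Ikk2ca 4 of 7 were lower, where 5.32% of all genes were, with a median of -2.44 against 0.02 over all genes. The list holds both activators and repressors of Ciita, so this count and median have no set direction for Ciita. Irf8, an activator in B cells, fell by 2.44 ± 0.40 (adjusted p = 0.00120), from 66.5 ± 8.21 to 12.2 ± 6.08 CPM. Pax5, the B cell identity factor, fell by 6.42 ± 1.65 (adjusted p = 0.0173), Bach2 by 4.96 ± 1.31 (adjusted p = 0.0198) and Zbtb32 fell by 5.19 ± 1.57 (adjusted p = 0.0382), all from under 5 CPM. In MMSET-Ikk2ca edgeR called 0 of 7 (3 with an unadjusted p below 0.05), and Irf8 was at 48.5 ± 12.8 against 50.5 ± 24.3 CPM. Whether these changes differed between cohorts was not tested. The repressor Prdm1, which silences Ciita in plasma cells, did not pass in either (adjusted p = 0.447 and 0.258).

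Genes of the interferon gamma route, which can switch Ciita on, were called in both directions. In Ccnd1-Ikk2ca 4 of 9 genes were higher and 2 lower, where 5.83% and 5.32% of all genes were so, with a median of 0.32 against 0.02. In MMSET-Ikk2ca 2 of 9 were higher and none lower, where 3.5% and 3.41% of all genes were so, with a median of 0.53 against 0.01. The receptor chain Ifngr2 rose by 0.86 ± 0.24 (adjusted p = 0.0278) and 1.40 ± 0.22 (adjusted p = 0.000774). The kinase Jak2 rose by 1.77 ± 0.37 in Ccnd1-Ikk2ca (adjusted p = 0.00522), and Irf2 fell by 0.74 ± 0.16 (adjusted p = 0.00679). The part of this route in the change of Ciita was not tested.

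Among 9 genes of invariant chain and antigen processing, 2 were higher and 1 lower in Ccnd1-Ikk2ca, where 5.83% and 5.32% of all genes were so. In MMSET-Ikk2ca 2 were higher and none lower, against 3.5% and 3.41% of all genes. The aminopeptidase cathepsin Ctsh fell by 3.16 ± 0.43 (adjusted p = 0.000267) and the asparaginyl endopeptidase Lgmn rose by 0.65 ± 0.18 (adjusted p = 0.0237) in the first. Cathepsin Ctsb rose by 0.68 ± 0.19 (adjusted p = 0.0380) and Sppl2a, which cleaves the Cd74 stub from the membrane, by 0.77 ± 0.23 (adjusted p = 0.0471) in the second. Of 3 genes of class II surface turnover, March1, a ligase that removes class II from the surface, fell by 4.397 ± 1.25 (adjusted p = 0.0396) in MMSET-Ikk2ca.

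Cd74 also serves as a receptor for the cytokine MIF. Of 6 genes of that axis, the MIF relative Ddt rose by 0.65 ± 0.18 (adjusted p = 0.0258) and the co-receptor Cd44 fell by 0.90 ± 0.23 (adjusted p = 0.0153) in Ccnd1-Ikk2ca, and edgeR called 0 of 6 in MMSET-Ikk2ca (0 with an unadjusted p below 0.05). Of 4 co-stimulatory genes, Cd40 rose by 2.06 ± 0.38 (adjusted p = 0.00232) in MMSET-Ikk2ca, from 5.47 ± 2.46 to 23.0 ± 6.42 CPM. In Ccnd1-Ikk2ca Cd40 was at 13.3 ± 4.85 against 3.52 ± 2.17 CPM and did not pass (adjusted p = 0.102).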

How the data were processed

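Per the labels' protocols, cDNA from sorted cells was primed with oligo-dT, template-switched, amplified and tagmented. The submitters' processing notes name bcl2fastq 2.20.0.422, Salmon 1.3.0, DESeq2 1.32.0 and GRCm38. The deposited tables give, per library, expected counts (NumReads, not whole numbers) and TPM for 140825 transcripts, per the file headers. Expected counts were summed to 54203 genes with GENCODE mouse release M21, rounded and tested with edgeR 4.0.16 in R 4.3.3 (TMM, filterByExpr, robust quasi-likelihood, two-sided, Benjamini-Hochberg over all genes tested, threshold 0.05). The 12 comparisons within a cohort came from 1 fit per cohort of 18 libraries, and the 5 across cohorts from a fit of all 36. Standard errors came from the log2 fold change and its F statistic. CPM levels were TMM-scaled over all 36 libraries. Levels between genes were compared in TPM.

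Of the transcripts, 865 did not match the annotation and held 0.0636% to 0.134% of reads. No strand was used, so reads of overlapping genes cannot be told apart (Gm20513 at H2-Eb1, Brd2 at H2-DMa, BC051537 at H2-Oa, Dexi at Ciita). PCR copies cannot be removed, and intervals cover counting error only. The named genes were all 10 members, up to 4 called per list by smallest adjusted p, else the 2 of highest level, and the 5 genes most like Cd74 and H2-Ab1 with a mean log2 CPM of at least 3. The members and the 9 pathway and 7 cell type lists were chosen with earlier results of these data known. The test was checked on simulated data. Alternatives were DESeq2 1.42.0, its size factors, voom with quality weights (limma 3.58.1), a replicate block, leaving out immunoglobulin genes, testing without the low-count filter, an indicator of Xist above 10 CPM, other sets of libraries in the fit, each library left out, and H2-DMb1 and H2-DMb2 summed. Values of some genes of the lists, which are counted in them, are not reported here.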

Additional observations from a re-analysis of the deposited data

Results flagged for a closer look

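In 11 of 86 sets of gene, or Cd74 exon share, and group, 1 library lay far from the others of its group by Dixon's criterion, which chance alone meets in about 1 set in 20. In Ikk2ca(D), replicate 3 was high for H2-Aa (25.5 CPM) and for H2-Oa (0.630 CPM). In Ccnd1-Ikk2ca, replicate 1 was high for H2-Aa (11.1 CPM) and H2-Eb2 (16.5 CPM), and replicate 2 for Ciita (0.442 CPM). In Ikk2ca(M), replicate 4 was high for H2-Aa (18.8 CPM) and H2-DMb2 (4.79 CPM), replicate 2 was low for H2-Eb2 (4.94 CPM) and high for Cd74 (10500 CPM), and replicate 3 was high for Ciita (1.38 CPM). In MMSET-Ikk2ca, replicate 1 was high for Ciita (0.299 CPM). Macrophage markers were highest of their group in Ikk2ca(D) replicate 3 (287 CPM), Ccnd1-Ikk2ca replicate 1 (74.1 CPM) and Ikk2ca(M) replicate 4 (310 CPM), and their part in the class II values of those libraries was not tested.

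Effects differed between groups for H2-Eb2. Its change in MMSET-Ikk2ca departed from the sum of the single changes by -5.37 on the log2 scale, and its change in the double group differed between the cohorts by -6.50.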

How the results depend on the processing

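Counts of the 10 genes called are given for each alternative that moved them by over 1.5 times. For Ikk2ca(D) against Control(D), 2 became 4 with DESeq2, and 0 with the Xist indicator or all 36 libraries in 1 fit. The share of all genes called was 0.437% in the main fit and 4.26% with DESeq2. It was 0.0261% with the Xist indicator and 0.672% with all 36 libraries. For Ccnd1-Ikk2ca against Ikk2ca(D), 0 became 3 with DESeq2. For MMSET against Control(M), 0 became 4 with DESeq2 and 1 with limma voom. Here 0.649% of all genes were called in the main fit, 4.39% with DESeq2 and 0.519% with limma voom. For Ikk2ca(M) against Control(M), 2 became 5 with DESeq2 and 0 with the replicate block. The count became 1 without the filter, 1 with only the groups compared and 1 with all 36 libraries. Among all genes 0.649% were called in the main fit, 4.00% with DESeq2 and 0.487% with the block. The shares were 0.338% without the filter, 0.785% with only the groups compared and 0.502% with all 36 libraries. For MMSET-Ikk2ca against MMSET, 4 became 2 with voom and without the filter, and 1 with the replicate block, the Xist indicator or only the groups compared. For MMSET-Ikk2ca against Ikk2ca(M), 2 became 1 with voom, the replicate block or the Xist indicator, and 4 with only the groups compared. For the MMSET-Ikk2ca interaction, 1 became 0 with the replicate block, the Xist indicator or all 36 libraries. For MMSET-Ikk2ca against Ccnd1-Ikk2ca, 2 became 1 with voom. For the double transgenic change, cohort M minus cohort D, 1 became 2 with DESeq2 or without immunoglobulin genes and 0 with only the groups compared. The cause was not tested. Against the controls the count was 8 to 9 for Ccnd1-Ikk2ca and 7 to 10 for MMSET-Ikk2ca under these alternatives, with genes both gained and lost. The share of all genes called ran from 4.39% without the filter to 17.4% with DESeq2 for Ccnd1-Ikk2ca. For MMSET-Ikk2ca it ran from 3.06% to 13.8% under the same 2 settings. Same-numbered libraries did not deviate together (1 of 24 pairs per cohort over a correlation of 0.1), so the numbers were not taken as pairs. With the replicate block H2-DMb2 (adjusted p = 0.0860) and Ciita (0.142) did not pass in Ccnd1-Ikk2ca, nor H2-Oa in MMSET-Ikk2ca (0.119) or Cd74 (0.0656) and H2-Aa (0.155) in Ikk2ca(M). With that block, H2-Eb2 in Ccnd1 turned to -0.041, and with the Xist indicator H2-Eb2 in Ikk2ca(D) turned to 0.41. With 1 library left out, Cd74 in Ccnd1 ran from -0.51 to 0.11 and H2-Eb2 from -0.21 to 0.30 (turned without Ccnd1 replicate 1), and H2-Eb2 in Ikk2ca(D) from -0.86 to 0.11 (turned without Ikk2ca(D) replicate 4). Leaving out each library in turn gave 0 to 3 calls for Ikk2ca(D) (0 without Ikk2ca(D) replicate 2), 8 to 10 for Ccnd1-Ikk2ca and 4 to 7 for Ccnd1-Ikk2ca against Ccnd1. It gave 0 to 2 for MMSET, 0 to 2 for Ikk2ca(M), 7 to 10 for MMSET-Ikk2ca, 1 to 4 against MMSET, 1 to 2 against Ikk2ca(M), 0 to 1 for the M interaction and 0 to 2 for the double change between cohorts. The Cd74 exon share in Ikk2ca(M) differed by 1.36 points with TPM and then had an unadjusted p under 0.05. In MMSET-Ikk2ca it ran from -0.505 to 0.234 points with 1 library left out. The smallest counts limit H2-Oa and Ciita in both double groups and H2-Eb2 in MMSET-Ikk2ca, with 0 to 34 reads per library. Low counts also limit H2-DMb2, with 0 to 105 reads per library in Ccnd1-Ikk2ca and 1 to 117 in MMSET-Ikk2ca. In single libraries H2-Eb2 had 3 reads (Ccnd1-Ikk2ca replicate 5) and H2-Ab1 had 11 (MMSET-Ikk2ca replicate 4).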
